A study of Mus musculus with 9 samples.

Results

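Histone genes were examined in poly(A)-selected RNA from a mouse B-lymphoma line treated with inhibitors of the methyltransferases that act on lysine 27 of histone H3. The genes were taken by symbol from the count table, as rows named for linker histones (H1f), H2A (H2ac, H2aw, H2az), H2B (H2bc, H2bu), H3 (H3c) or H4 (H4c, H4f) with a mean of at least 10 counts over 9 libraries. This gave 59 genes of 45361 identifiers, classed by symbol as 53 replication-dependent and 6 variant. Variant genes with other symbols, such as H3f3a and H3f3b, fall outside the rule. Another 19 rows had a matching symbol but a mean under 10, of which 8 were at 0 in every library. The choice used the mean level and no contrast between groups. Just inside the limit lay H4c14 with a mean of 10 counts, and just outside lay H2bc24 with 9.56.

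All libraries came from CH12F3 cells that lack Ligase4 by knockout. The cells had received anti-CD40, TGF-β and IL-4 for 24 h, and the groups differed in the added compound. There were 3 libraries with tazemetostat, an inhibitor of EZH2, 3 with valemetostat, which inhibits both EZH1 and EZH2, and 3 with the solvent DMSO. The labels give no dose, and the knockout and the stimulation were shared by all groups, DMSO included. The series concerns 1 cell line. The question taken here was how the RNA of replication-dependent and variant histones stood in each group.

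Replication-dependent histone genes supply the nucleosome and linker histones that package newly copied DNA. They lie mostly in clusters, lack introns for the most part, and their mRNA usually ends in a short stem-loop bound by SLBP in place of a poly(A) tail. Variant histones are made throughout the cell cycle from ordinary polyadenylated mRNA and replace other histones at particular sites or in particular cells. Selection on poly(A) keeps little of a stem-loop-ended mRNA, so a level here counts the reads that passed that selection and not the whole output of the gene. What share of each gene's RNA was captured was not measured.

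Library totals ran from 34080504 to 46675110 counts. Lig4, the knockout's target, had 21 to 59 counts with tazemetostat, 31 to 46 with valemetostat and 29 to 39 with DMSO, and the deleted part is not given, so the counts do not test the knockout. All 6 B cell markers were expressed, with a summed level of 3224 to 3249 CPM with tazemetostat, 3297 to 3460.2 with valemetostat and 2742 to 3006 with DMSO. Of these, 4 passed the test used below as higher with each inhibitor, and in limma on log2(TPM + 1) values 1 with tazemetostat and 4 with valemetostat. The 5 T cell markers summed to at most 2.23 CPM in any library, and of the 4 tested edgeR called 0 with either inhibitor, 0 at an unadjusted p under 0.05 and 0 by DESeq2. The 5 myeloid markers summed to 32.1 to 35.8 CPM with tazemetostat, 32.4 to 36.6 with valemetostat and 33.4 to 37.1 with DMSO, with 2 of 4 tested higher and 1 lower with each inhibitor. The 3 erythroid markers summed to 5.12 to 5.79 CPM with tazemetostat, 5.13 to 5.49 with valemetostat and 2.95 to 3.08 with DMSO, with Hbb-bs at 0 and the 1 tested gene higher with each inhibitor. The part of these markers in the histone results was not tested. CPM are counts scaled to a common library total with the trimmed mean of M-values (TMM). In bulk RNA, fewer cells in DNA synthesis and less RNA per cell cannot be told apart.

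The stem-loop is shown because most of the replication-dependent genes carry it. It was searched for as the letters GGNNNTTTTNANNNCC on the transcript strand within 100 bases after the stop codon of GENCODE M21 (GRCm38) transcripts, where 65 of 51997 transcripts with a 3′ end annotated, or 0.125%, held it. Of the 53 replication-dependent genes, 38 had it, 21 to 58 bases after the stop codon, and of the 15 without it 7 had no 3′ end annotated past the stop codon. The only gene of the 6 in the variant class with the letters was H4f16, which was placed there by its symbol. Its loop has the same form as that of H4c3, so its class is uncertain, and counts of 6 variant genes include it. There were 6 forms among these 39 genes, each given 5′ to 3′ by 1 gene. The T bases fixed in the search letters are in capitals and do not mark the limits of the loop.
H2aw: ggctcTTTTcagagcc
H3c3: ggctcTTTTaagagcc
H2ac20: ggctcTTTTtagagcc
H4c3: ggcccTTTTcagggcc
H4c14: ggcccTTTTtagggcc
H4c2: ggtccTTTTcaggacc

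The H2aw form was shared by 23 replication-dependent genes of the H1, H2A, H2B and H3 families, among them H1f2. The H3c3 form was shared by 5, H2bc3, H2bc12, H3c3, H3c6 and H3c7. The H4c3, H4c14 and H4c2 forms were found in H4 genes alone, in 6, 2 and 2 of them, with H4f16 among the 6. The annotated transcripts also differed in what follows the loop. In H3c3 74 bases follow it and in H2bc12 30, whereas in H1f2 840 and in H2aw 1643 bases follow it and the transcript ends with a poly(A) hexamer (AATAAA or ATTAAA) in its last 50 bases. Such a hexamer was found in 12 of the 53 replication-dependent genes and in all 6 variant genes. H2bc4 has a spliced annotated transcript of 2 exons whose 3′ end lacks both the loop letters and the hexamer.

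Per transcript length, in the authors' TPM (read density per transcript scaled to a fixed total), the variant H2A.Z gene H2az1 stood far above every replication-dependent gene. Its mean over the 9 libraries was 1849.9 TPM, against 82.6 TPM for H3c3, the highest replication-dependent gene on this scale. The next replication-dependent genes were H2bc4 with 54.6 and H2bc12 with 42 TPM. The median replication-dependent gene had 5.41 TPM, and the range was 0.126 for H1f3 to 82.6. Of the 150-base windows of the longest H2az1 transcript, 56.5% recur in a transcript of Tmcc1, and reads there cannot be told apart. Counts were low for most members: 40 of the 53 replication-dependent genes had a mean under 100 counts, and H2bc4 alone was above 1000.

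**Figure D1:**
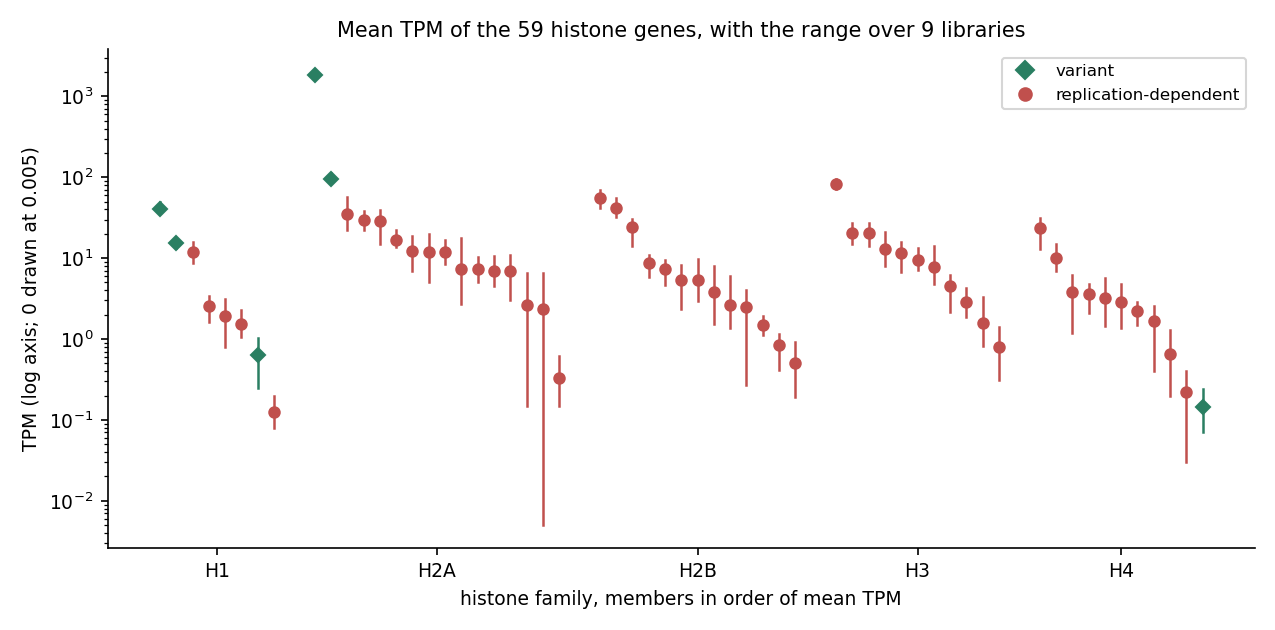
Mean TPM of the 59 histone genes on a log axis, by family, with lines for the range over the 9 libraries. Variant genes are diamonds and replication-dependent genes circles; H2az1 stands highest at 1849.9 TPM and H3c3 leads the replication-dependent genes at 82.6 TPM.

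With tazemetostat, 4 of 53 replication-dependent genes rose and 5 fell, and 44 did not pass the test, edgeR's quasi-likelihood test at a Benjamini-Hochberg adjusted p under 0.05 over 12580 genes. Of all tested genes 19.9% were higher and 18.2% lower, so the share of members called was below the background in both directions. The rise was carried by H2bc4, H2aw and H1f2, which are also among the 5 replication-dependent genes with the most CPM. The median log2 fold change of the 53 genes was -0.15, against 0.00 over all tested genes. Single libraries moved this median by over 1.5 times: it was -0.05 without DMSO library 1 or tazemetostat library 2 and -0.07 without DMSO library 3.

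H2bc4, which encodes a core histone H2B, had 50.4, 50.9 and 45.5 CPM in the tazemetostat libraries, 38.2, 37.5 and 39.1 CPM in the valemetostat libraries and 31.8, 30.5 and 29.7 CPM in the DMSO libraries. The tazemetostat libraries were all above the valemetostat libraries, and these were all above the DMSO libraries. The log2 fold change with tazemetostat was 0.67 ± 0.06 (SE, edgeR, adjusted p = 7.13e-09). H2aw, an H2A gene on chromosome 11 outside the large cluster on chromosome 13, had 16.4, 13.3 and 13.4 CPM in the tazemetostat libraries, 8.8, 7.22 and 10.3 CPM in the valemetostat libraries and 9.95, 9.46 and 7.29 CPM in the DMSO libraries. Its tazemetostat libraries lay above all others, while the valemetostat and DMSO libraries overlapped. The log2 fold change with tazemetostat was 0.69 ± 0.14 (edgeR, adjusted p = 2.49e-04).

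H1f2, which encodes the linker histone H1.2, had 16.7, 15.3 and 14.4 CPM in the tazemetostat libraries, 11.8, 10.5 and 12.6 CPM in the valemetostat libraries and 11, 11.7 and 8.97 CPM in the DMSO libraries. Again the tazemetostat libraries were the highest, and those with valemetostat and DMSO overlapped. The log2 fold change with tazemetostat was 0.55 ± 0.11 (edgeR, adjusted p = 3.12e-04). The rises of H2bc4, H2aw and H1f2 passed the test in all 19 alternative analyses, each library left out in turn included. Part of the annotated H2aw transcript, 28% of its 150-base windows, is shared with Trim17, an overlapping gene annotated on the same strand, and reads there cannot be told apart. Trim17 itself had 9, 20 and 6 counts with tazemetostat, 7, 7 and 0 with valemetostat and 9, 3 and 1 with DMSO.

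**Figure D2:**
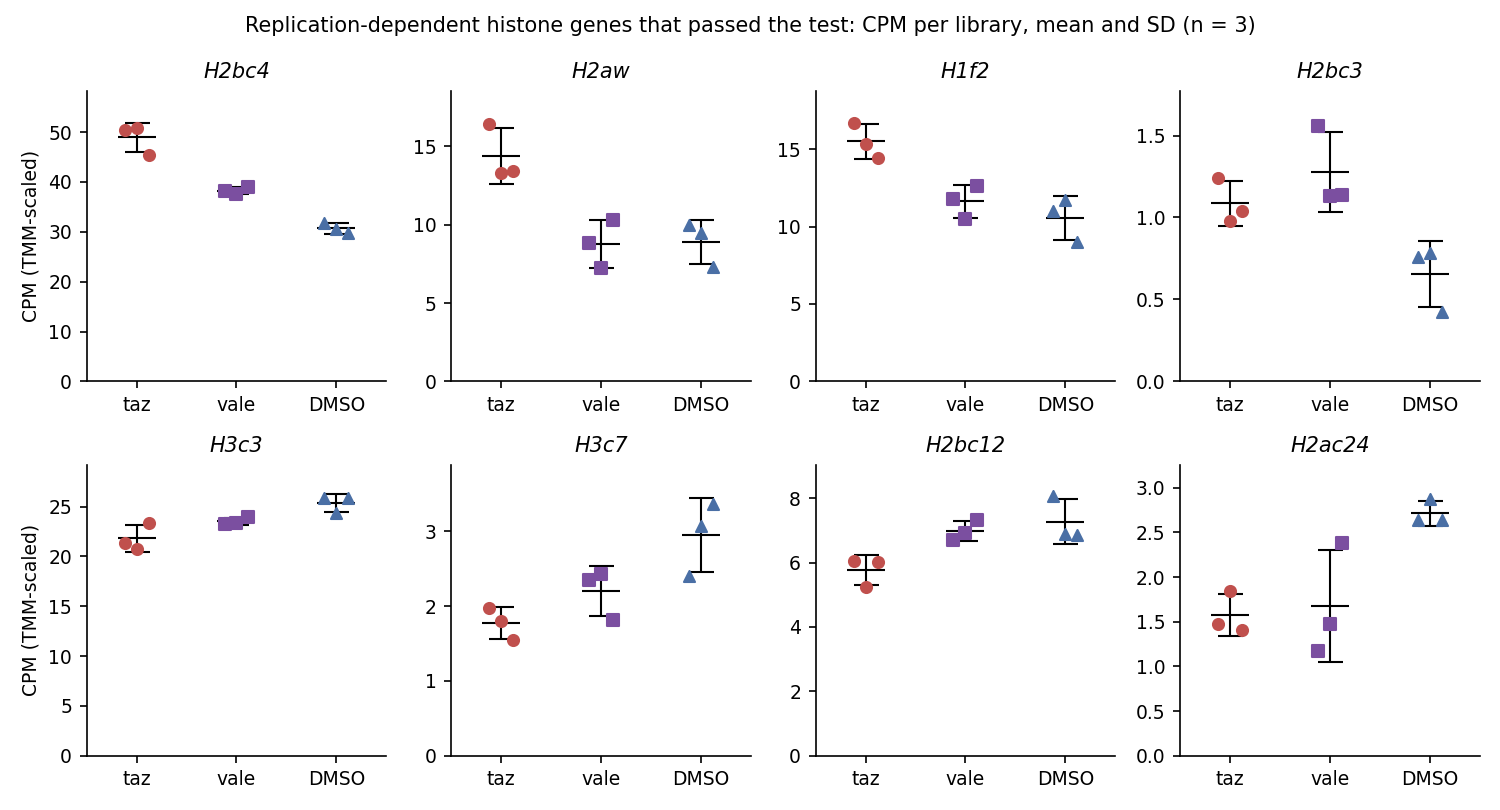
CPM per library (points) with the mean and SD of 3 libraries for 8 replication-dependent genes that passed the test in at least 1 comparison; taz is tazemetostat and vale valemetostat. H2bc4 steps down across tazemetostat, valemetostat and DMSO, whereas H2aw and H1f2 stand apart with tazemetostat; in the lower row DMSO has the highest mean of each gene.

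The genes that fell with tazemetostat included H3c3 and H3c7, which encode core histone H3, and H2bc12, an H2B gene. H3c3 had 21.4, 20.8 and 23.3 CPM in the tazemetostat libraries, 23.3, 23.3 and 23.9 CPM in the valemetostat libraries and 25.9, 24.3 and 25.9 CPM in the DMSO libraries. The groups with tazemetostat and DMSO did not overlap, at a log2 fold change of -0.22 ± 0.07 (edgeR, adjusted p = 0.0229), a much smaller step than the rise of H2bc4. H3c7 had 1.98, 1.79 and 1.55 CPM in the tazemetostat libraries, 2.35, 2.43 and 1.81 CPM in the valemetostat libraries and 2.4, 3.07 and 3.36 CPM in the DMSO libraries. All 3 tazemetostat libraries were below the DMSO libraries, with a log2 fold change of -0.72 ± 0.24 (edgeR, adjusted p = 0.0183). H2bc12 had 6.06, 5.24 and 6.01 CPM in the tazemetostat libraries, 6.71, 6.93 and 7.31 CPM in the valemetostat libraries and 8.08, 6.87 and 6.87 CPM in the DMSO libraries, and its log2 fold change of -0.34 ± 0.13 was at the limit of the test (edgeR, adjusted p = 0.0497).

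These decreases depended on single libraries, unlike the rises of H2bc4, H2aw and H1f2. The H3c3 call was lost without DMSO library 1 or 3 or without tazemetostat library 1 or 2 (edgeR, adjusted p up to 0.104). The H3c7 call was lost without DMSO library 2 or 3 or tazemetostat library 3 (edgeR, adjusted p up to 0.0727). The H2bc12 call was lost when any library except DMSO library 3 was left out (edgeR, adjusted p up to 0.21), and also with median-ratio size factors, no filter, the 1 CPM filter, the replicate block or the compared groups alone. The direction of all 3 genes held in these fits. Of the windows of the H2bc12 transcript, 60.9% recur in other genes, with H2bc24 alone sharing 56.3%, and reads there cannot be told apart. The share recurring in other genes was 24.4% for H3c7 and 15.6% for H3c3. The part of shared reads in the fall of H2bc12 was not tested.

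The other calls with tazemetostat, H2ac18 and H2ac24 lower and H2ac19 higher, concern genes whose transcripts are nearly the same as another histone gene's. H2ac18 had 0, 1 and 0 counts with tazemetostat, 0, 59 and 3 with valemetostat and 54, 34 and 44 with DMSO. H2ac19 had 119, 150 and 98 counts with tazemetostat, 110, 68 and 88 with valemetostat and 92, 75 and 60 with DMSO. Among the valemetostat libraries, library 2 gave H2ac18 nearly as many counts as H2ac19, while libraries 1 and 3 gave it almost none. Summed, both genes together had 119, 151 and 98 counts with tazemetostat, 110, 127 and 91 with valemetostat and 146, 109 and 104 with DMSO. The log2 fold change of the sum was -0.05 ± 0.21 with tazemetostat (edgeR, adjusted p = 0.885), so neither call held for the pair. Reads could not be assigned between such copies, and values of H2ac18 and H2ac19 taken singly are uncertain.

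H2ac24, an H2A gene paired in the same way with H2ac23, had 1.48, 1.84 and 1.4 CPM in the tazemetostat libraries, 1.17, 1.48 and 2.38 CPM in the valemetostat libraries and 2.64, 2.87 and 2.64 CPM in the DMSO libraries. With tazemetostat its log2 fold change was -0.78 ± 0.27 (edgeR, adjusted p = 0.0255) and with valemetostat -0.69 ± 0.27 (edgeR, adjusted p = 0.0469). The pair's sum changed by -0.63 ± 0.28 with tazemetostat and by -0.68 ± 0.28 with valemetostat on the log2 scale, and neither value was called (edgeR, adjusted p = 0.0776 and 0.055). The single-gene call with tazemetostat was also lost without DMSO library 2 or tazemetostat library 1 or 3 (edgeR, adjusted p up to 0.082). That with valemetostat was lost when any 1 DMSO library was left out or without valemetostat library 1 or 2 (edgeR, adjusted p up to 0.207). H2ac19 was also lost without DMSO library 1 or 3 or tazemetostat library 2 or 3 (edgeR, adjusted p up to 0.191), and with library totals, the replicate block, the length and GC offset or the log2(TPM + 1) values. H2ac18 was lost without any 1 tazemetostat library (edgeR, adjusted p up to 0.124). H2bc24, the gene just outside the limit of the rule, had 86 counts in DMSO library 1 and 0 in the other 8 libraries. H2bc23, its near-identical copy, had 17 counts in DMSO library 1, against 84 and 98 in DMSO libraries 2 and 3.

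**Figure D3:**
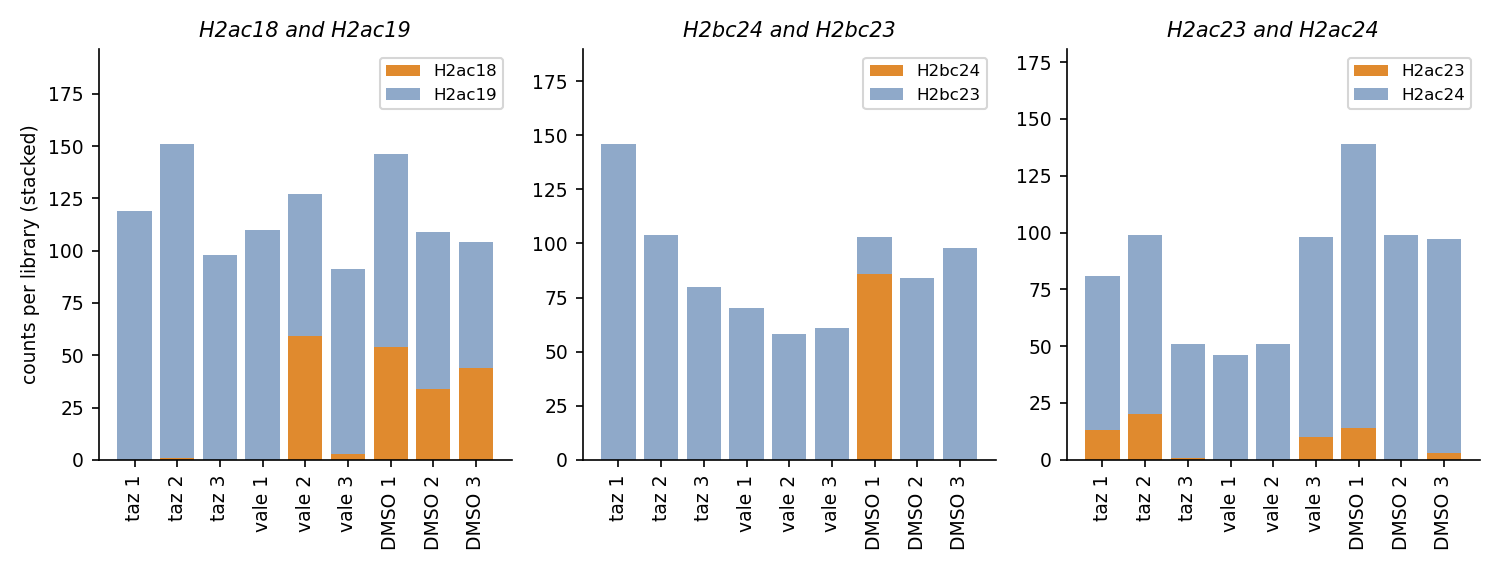
Counts per library, stacked, for 3 pairs of near-identical genes. The sum of H2ac18 and H2ac19 stays between 91 and 151 counts while the part given to H2ac18 runs from 0 to 59, and the 86 counts of H2bc24 all lie in DMSO library 1.

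With valemetostat, 2 of 53 replication-dependent genes were higher than with DMSO, H2bc4 and H2bc3, and 1 was lower, H2ac24. Of all tested genes 20.5% were higher and 18.7% lower, again more than among the members. The median log2 fold change of the 53 genes was -0.14, against 0.01 over all tested genes. The rise of H2bc4 with valemetostat was 0.32 ± 0.07 on the log2 scale (edgeR, adjusted p = 3.75e-04) and passed in all 19 alternatives. H2bc3, an H2B gene with few counts, had 1.24, 0.978 and 1.04 CPM in the tazemetostat libraries, 1.56, 1.13 and 1.14 CPM in the valemetostat libraries and 0.759, 0.783 and 0.421 CPM in the DMSO libraries. The valemetostat libraries were above the DMSO libraries at a log2 fold change of 0.95 ± 0.38 (edgeR, adjusted p = 0.0494), but the call was lost when any 1 of the 9 libraries was left out (edgeR, adjusted p up to 0.184), and with library totals, no filter, the replicate block, the compared groups alone or the length and GC offset. With tazemetostat H2bc3 had a log2 fold change of 0.72 ± 0.38 and did not pass (edgeR, adjusted p = 0.143). Both comparisons use the same DMSO libraries.

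The compounds were then compared directly, as far as the labels allow without doses. Between valemetostat and tazemetostat 40 of 12580 genes were called, 0.0636% of those tested higher and 0.254% lower with valemetostat, and 2 of the 53 replication-dependent genes were among the lower ones. These were H2bc4, at -0.35 ± 0.06 (edgeR, adjusted p = 0.0103), and H2aw, at -0.71 ± 0.14 on the log2 scale (edgeR, adjusted p = 0.0145). For both, the 3 valemetostat libraries lay below the 3 tazemetostat libraries, as the CPM above show. For H2bc4 the valemetostat level was 38.3 ± 0.765 CPM, against 48.9 ± 3.0 CPM with tazemetostat (SD, n = 3 each). For H2aw it was 8.78 ± 1.55 CPM, against 14.4 ± 1.77 CPM with tazemetostat.

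H1f2 had 11.6 ± 1.06 CPM with valemetostat, against 15.5 ± 1.13 CPM with tazemetostat, and the groups did not overlap. It did not pass the test over all genes, with a log2 difference of -0.42 ± 0.11 and a 95% interval of -0.63 to -0.20 (edgeR, adjusted p = 0.157). No replication-dependent gene passed edgeR's test as higher with valemetostat than with tazemetostat, with 3 at an unadjusted p under 0.05 and 0 called by DESeq2, and the median log2 difference of the 53 genes was -0.02, or -0.13 without valemetostat library 1 and 0.05 without tazemetostat library 2. The H2bc4 call between the compounds was lost without tazemetostat library 1 or 2 or valemetostat library 1 or 2 (edgeR, adjusted p up to 0.103). The H2aw call was lost without tazemetostat library 1 or valemetostat library 1 or 2 (edgeR, adjusted p up to 0.22). In limma on the deposited log2(TPM + 1) values neither gene passed (adjusted p = 0.319 and 0.528), and 1 gene in all was called.

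The promoters of H2aw and H1f2, which rose with tazemetostat, and of H3c3, which fell, are shown to set their elements beside each other. Motifs were searched on both strands in the window of 250 bases before to 50 after the RefSeq start (GRCm38.p6), which was available for 54 of the 59 genes. They were the CCAAT box, the letters TATAAA of a TATA box, and the octamer ATGCAAAT, a known element of histone H2B promoters, and none of these letters contains another motif. CCAAT was found in 42 of 48 replication-dependent promoters (87.5%), against 37.9% of all RefSeq promoters. TATAAA was found in 58.3% of the replication-dependent promoters, against 14.2% of all. The octamer was found in 10 replication-dependent promoters, 6 of H2A and 4 of H2B genes, or 20.8%, against 1.75% of all promoters. Of the 6 variant promoters, 3 held CCAAT and none held TATAAA or the octamer. The windows run 5′ to 3′ in the direction of the gene, with motif matches on either strand in capitals.
H2aw, chr11:58954435-58954734, plus strand: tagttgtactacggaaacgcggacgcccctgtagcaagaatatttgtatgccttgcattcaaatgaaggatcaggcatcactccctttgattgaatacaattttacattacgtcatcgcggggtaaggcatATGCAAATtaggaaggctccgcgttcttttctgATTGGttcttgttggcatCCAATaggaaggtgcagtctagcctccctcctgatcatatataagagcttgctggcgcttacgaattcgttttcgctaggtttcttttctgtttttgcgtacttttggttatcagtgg
H1f2, chr13:23738557-23738856, plus strand: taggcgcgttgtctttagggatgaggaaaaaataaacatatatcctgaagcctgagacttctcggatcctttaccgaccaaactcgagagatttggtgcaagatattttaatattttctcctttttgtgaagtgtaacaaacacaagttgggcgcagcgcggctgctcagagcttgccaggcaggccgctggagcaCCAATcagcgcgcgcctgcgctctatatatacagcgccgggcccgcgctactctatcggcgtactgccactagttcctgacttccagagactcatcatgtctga
H3c3, chr13:23745472-23745771, minus strand: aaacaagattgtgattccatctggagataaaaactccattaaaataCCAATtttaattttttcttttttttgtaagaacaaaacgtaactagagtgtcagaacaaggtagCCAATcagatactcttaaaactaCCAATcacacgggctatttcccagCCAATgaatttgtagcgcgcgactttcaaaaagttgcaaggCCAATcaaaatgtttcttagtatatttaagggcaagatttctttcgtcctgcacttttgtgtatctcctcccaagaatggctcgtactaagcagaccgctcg

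The H2aw window held 2 CCAAT matches and 1 octamer, the H1f2 window 1 CCAAT match and the H3c3 window 5 CCAAT matches. None of these windows held the TATAAA letters. CCAAT was thus present beside genes that rose and a gene that fell, and a match describes letters, not a bound site.

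Among the variant genes within the rule 1 of 6 rose with tazemetostat and 1 of 6 with valemetostat, beside 19.9% and 20.5% of all tested genes. These 6 do not stand for all variants, since H3f3a, H3f3b, H2ax, Cenpa and Macroh2a1 have other symbols and are read further below. As lower, edgeR called 0 of 6 with either inhibitor, with 0 at an unadjusted p under 0.05 and 0 by DESeq2, and between valemetostat and tazemetostat it called 0 in either direction, with 1 at an unadjusted p under 0.05 and 0 by DESeq2. H1f0, the replacement linker histone that accumulates in non-dividing and differentiated cells, had 71.3, 64.1 and 57.6 CPM in the tazemetostat libraries, 54.7, 56.6 and 66.8 CPM in the valemetostat libraries and 57.2, 51.9 and 51.4 CPM in the DMSO libraries. With tazemetostat all 3 libraries were above the DMSO libraries, with a log2 fold change of 0.27 ± 0.08 (edgeR, adjusted p = 0.0111). The call was lost without DMSO library 3 or tazemetostat library 1 (edgeR, adjusted p up to 0.0812) and on the log2(TPM + 1) values (limma, adjusted p = 0.229). With valemetostat its log2 fold change was 0.15 ± 0.08 and did not pass (edgeR, adjusted p = 0.154), and between valemetostat and tazemetostat the log2 difference was -0.12 ± 0.08 (edgeR, adjusted p = 0.763).

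H2az2, a further gene for H2A.Z, which marks promoters, had 70.3, 65.9 and 72.2 CPM in the tazemetostat libraries, 70.2, 79.5 and 77 CPM in the valemetostat libraries and 67.7, 63.4 and 69.9 CPM in the DMSO libraries. Its log2 fold change was 0.17 ± 0.06 with valemetostat (edgeR, adjusted p = 0.0213) and 0.05 ± 0.06 with tazemetostat (edgeR, adjusted p = 0.526). The call with valemetostat was lost without DMSO library 2 or valemetostat library 2 or 3 (edgeR, adjusted p up to 0.117), with the length and GC offset and on the log2(TPM + 1) values (limma, adjusted p = 0.648). H2az1, the most abundant histone gene here, averaged 1200.2 ± 80.4 CPM with tazemetostat, 1198 ± 54.4 with valemetostat and 1153 ± 69.1 with DMSO (SD, n = 3 each). Its log2 fold change had a 95% interval of -0.04 to 0.16 with tazemetostat and of -0.04 to 0.16 with valemetostat, and neither passed the test.

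H1f10, a linker histone of the H1X type, averaged 12.1 ± 1.22 CPM with tazemetostat, 12 ± 0.799 with valemetostat and 11.3 ± 0.824 with DMSO. The 95% interval of its log2 fold change was -0.11 to 0.32 with tazemetostat and -0.12 to 0.31 with valemetostat. H1f8, the oocyte linker histone, had 11, 15 and 10 counts with tazemetostat, 25, 14 and 6 with valemetostat and 19, 13 and 19 with DMSO. H4f16 had 10, 20 and 8 counts with tazemetostat, 10, 13 and 19 with valemetostat and 12, 5 and 11 with DMSO. At these depths neither gave a call, and log2 intervals with tazemetostat spanned -1.70 to 0.53 for H1f8 and -0.84 to 1.55 for H4f16.

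Calls were also set beside those of all genes of like depth. Of the 40 replication-dependent genes with a mean of 10 to 100 counts, 4 were called with tazemetostat and 2 with valemetostat, against 26.1% and 25.6% of all tested genes at that depth. Of the 12 with 100 to 1000 counts, 4 were called with tazemetostat and 0 with valemetostat, against 33.3% and 33.5% of all; for the 0 called by edgeR with valemetostat, 1 had an unadjusted p under 0.05 and DESeq2 called 0. The other 43 replication-dependent genes, called in no comparison, had mean levels of 0.247 to 5.81 CPM. Their log2 fold changes ran between -0.96 and 1.25 with tazemetostat, and between -0.94 and 0.86 with valemetostat, with 1 at an unadjusted p under 0.05 in each. Of all 53, 22 were above 0 with tazemetostat and 17 with valemetostat, and these comparisons share the DMSO libraries. The share above 0 over all tested genes was 50.2% with tazemetostat and 51% with valemetostat. By family the genes above 0 with tazemetostat were 3 of 5 H1, 5 of 14 H2A, 8 of 13 H2B, 4 of 11 H3 and 2 of 10 H4 genes. A group of 5 near-identical H2A genes, H2ac7, H2ac12, H2ac13, H2ac14 and H2ac22, is uncertain gene by gene, and its summed count had a log2 fold change of -0.02 ± 0.14 with tazemetostat and -0.27 ± 0.14 with valemetostat (edgeR, adjusted p = 0.947 and 0.134). The same holds for H4c17 and H4c18, at -0.55 ± 0.34 and -0.39 ± 0.34 (edgeR, adjusted p = 0.223 and 0.395). The median standard error of the log2 fold change was 0.37 for the 53 genes with tazemetostat and 0.08 for all tested genes. Most single members thus had counts too low to show a small change.

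**Figure D4:**
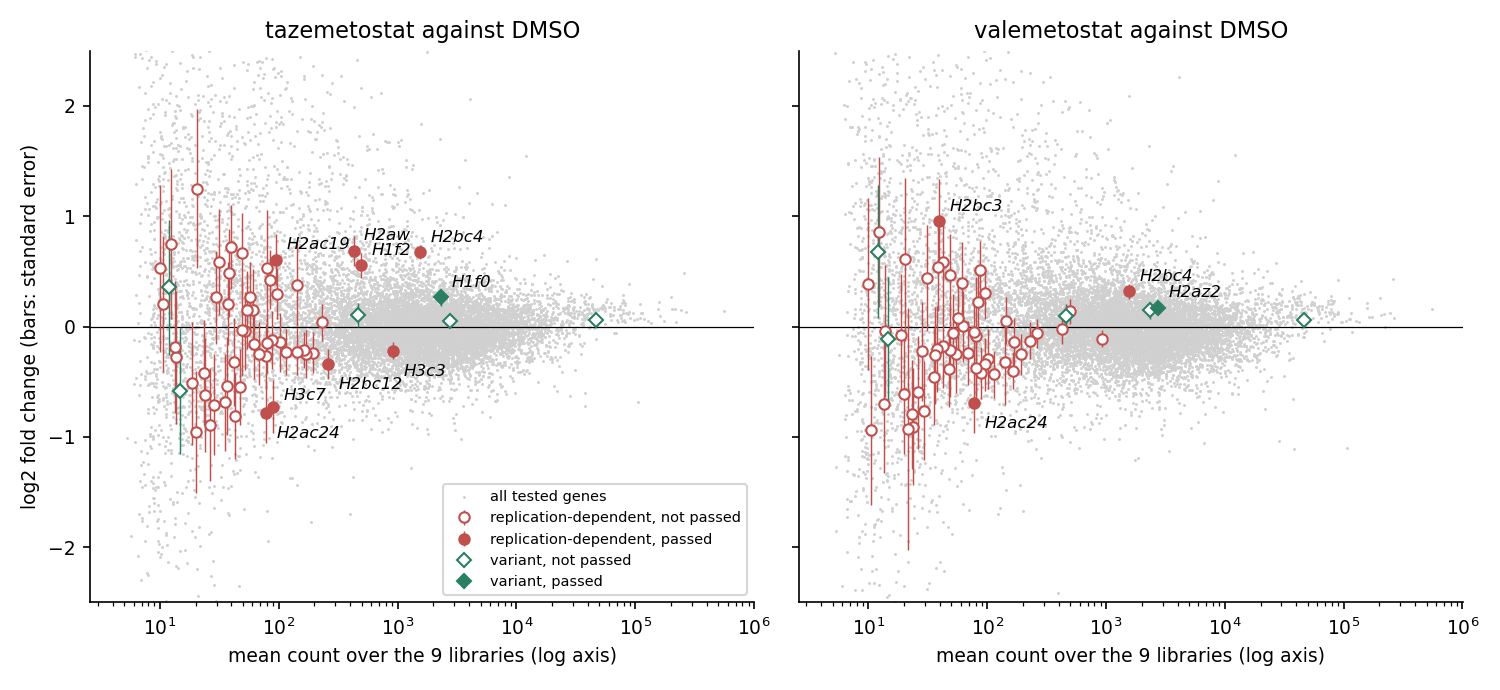
Log2 fold change against DMSO (with its standard error) over the mean count of each gene on a log axis, for tazemetostat and valemetostat; grey points are all tested genes, circles replication-dependent and diamonds variant genes, filled where the test was passed. Most members sit below 100 counts with wide errors, and H2bc4, at a mean of 1553 counts, stands above 0 in both panels; H2ac18 with tazemetostat and other points beyond 2.5 lie outside the axis.

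Summed over the 53 genes, replication-dependent histone RNA came to 190.4, 183 and 181 CPM in the tazemetostat libraries, 167, 159.9 and 167 CPM in the valemetostat libraries and 169, 161 and 168 CPM in the DMSO libraries. On this scale the tazemetostat libraries were the highest, and the valemetostat and DMSO libraries overlapped. In TPM the order was different, with 595, 562 and 567 in the tazemetostat libraries, 564, 533 and 562 in the valemetostat libraries and 643, 595 and 643 in the DMSO libraries. The ratio of tazemetostat to DMSO was 1.11 in CPM and 0.917 in TPM, and that of valemetostat to DMSO 0.992 and 0.881, so the direction of the tazemetostat sum flips between the scales and no direction is given for it. On the log2(TPM + 1) scale the median of all tested genes was -0.07 with each inhibitor, against 0.00 with tazemetostat and 0.01 with valemetostat in the counts, so genes in general lay lower in TPM.

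Without H2bc4, H2aw and H1f2, left out after their values were seen, the remaining 50 genes summed to 106 ± 2.38 CPM with tazemetostat, 106 ± 1.92 with valemetostat and 116 ± 6.4 with DMSO (mean ± SD, n = 3 each). In TPM they came to 484 ± 15.1 with tazemetostat, 484 ± 14 with valemetostat and 566 ± 31.2 with DMSO. Both inhibitors gave lower means than DMSO on both scales, by ratios of 0.916 and 0.914 in CPM for tazemetostat and valemetostat and of 0.855 for each in TPM. Only genes that rose were left out and none that fell, which by itself lowers these ratios, so no direction is drawn from them. In CPM, DMSO library 2 had 109, against 108 in valemetostat library 1 and 108 in tazemetostat library 3. No test was made of these sums.

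By family, summed H2B came to 72.4 ± 4.84 CPM with tazemetostat, 61.6 ± 1.26 with valemetostat and 54.8 ± 0.823 with DMSO. Its ratio to DMSO was 1.32 with tazemetostat and 1.12 with valemetostat in CPM, and 1.06 and 1.0 in TPM. Without H2bc4, left out after its values were seen, H2B came to 23.5 ± 3.24 CPM with tazemetostat, 23.3 ± 0.567 with valemetostat and 24.1 ± 0.451 with DMSO, so the CPM step of this family was that of H2bc4. Summed replication-dependent H1 came to 20.2 ± 0.953 CPM with tazemetostat, 15.4 ± 1.28 with valemetostat and 15.5 ± 0.665 with DMSO, with H1f2 as its largest member. Its ratio to DMSO with tazemetostat was 1.3 in CPM and 1.17 in TPM. Summed H3 came to 41.8 ± 0.713 CPM with tazemetostat, 43.5 ± 1.87 with valemetostat and 47.4 ± 3.25 with DMSO, and in TPM the ratio to DMSO was 0.87 for tazemetostat and 0.865 for valemetostat. Summed H2A was 41.8 ± 0.371 CPM with tazemetostat, 34.5 ± 0.979 with valemetostat and 38.7 ± 2.05 with DMSO, but its tazemetostat ratio to DMSO was 1.08 in CPM and 0.866 in TPM. H4 had the least, with 8.66 ± 1.29 CPM with tazemetostat, 9.66 ± 0.726 with valemetostat and 9.6 ± 1.36 with DMSO. Its ratio to DMSO was 0.902 with tazemetostat and 1.01 with valemetostat in CPM, and 0.786 and 0.973 in TPM, so with valemetostat it crossed 1 between the scales.

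The 6 variant genes summed to 1316, 1290.0 and 1434 CPM in the tazemetostat libraries, 1315, 1408 and 1315 CPM in the valemetostat libraries and 1365, 1220.2 and 1271 CPM in the DMSO libraries, and the groups overlapped. In these poly(A)-selected libraries the sum of these 6 genes was 6.92 to 8.81 times the replication-dependent sum in CPM and 3.03 to 3.87 times in TPM. Most of it was H2az1. Without that gene the variant sum averaged 147 CPM with tazemetostat, 148 with valemetostat and 132 with DMSO. Variant genes whose symbols miss the rule are not in it, such as H3f3b and H3f3a with means of 27459 and 16871 counts. The sum is thus not the whole variant level. Replication-dependent histones took 0.0159 to 0.019% of a library's counts.

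**Figure D5:**
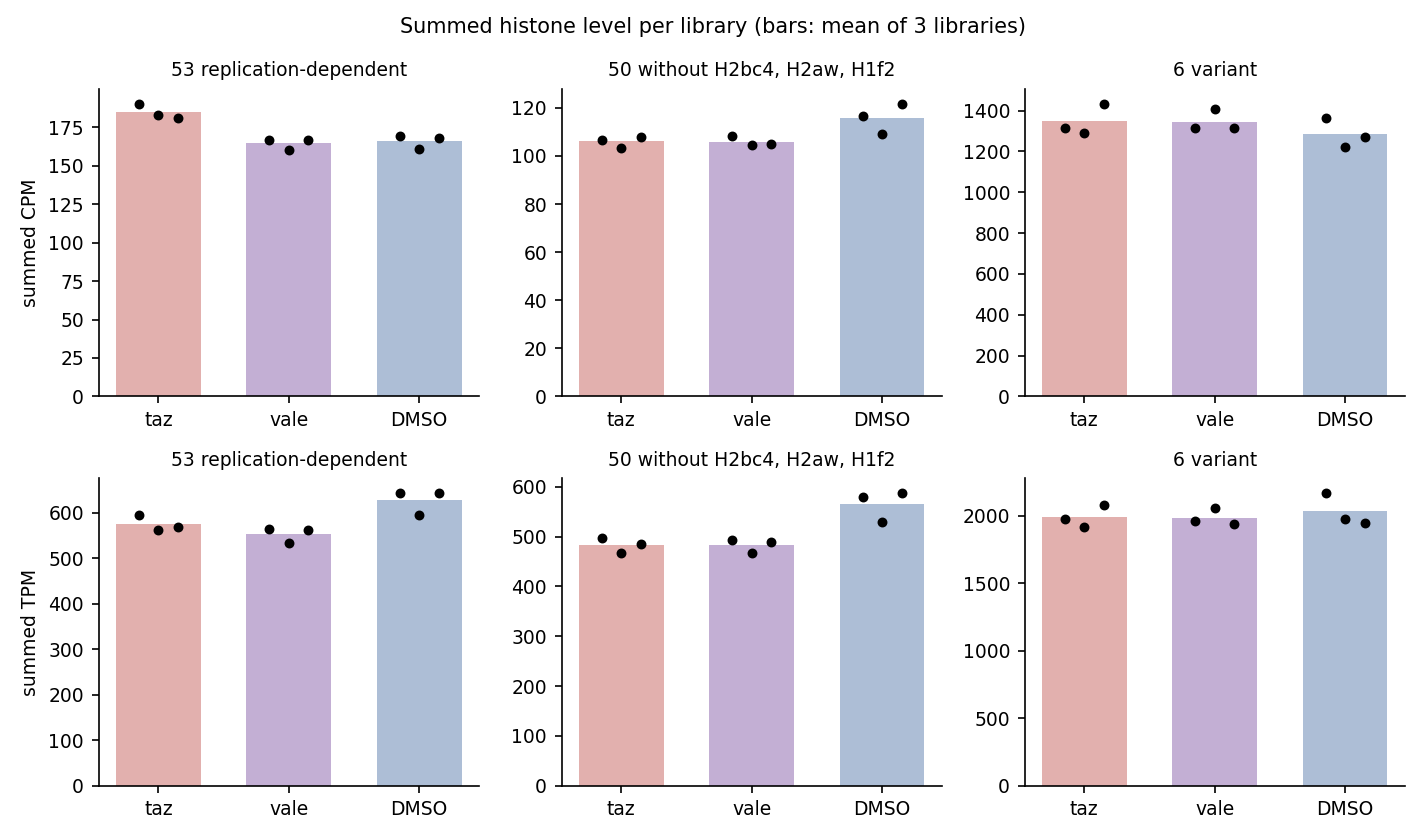
Summed level per library (points; bars are means of 3) in CPM (top) and TPM (bottom) for the 53 replication-dependent genes, for 50 of them without H2bc4, H2aw and H1f2, and for the 6 variant genes; taz is tazemetostat and vale valemetostat. The tazemetostat bar of all 53 genes is above that of DMSO in CPM (185 against 166) and below it in TPM (575 against 627). H2bc4, H2aw and H1f2 were left out after their rise with tazemetostat was seen, which by itself lowers the sum of the 50 with tazemetostat relative to DMSO.

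A list of further histone genes, with variants whose symbols miss the rule and with H1f0, had 7 tested. In the counts edgeR called 6 higher with tazemetostat and 5 with valemetostat, beside 19.9% and 20.5% of all tested genes, and 0 lower with either, with 0 at an unadjusted p under 0.05 and 0 by DESeq2. The lowest of the 7, H2aj, had a mean of 1145 counts. At a mean of 1000 counts or more, 45.2% of all tested genes were called in either direction with tazemetostat and 47.2% with valemetostat. H3f3b and H3f3a, which encode the replacement histone H3.3, had log2 fold changes of 0.25 ± 0.04 and 0.16 ± 0.04 with tazemetostat and of 0.14 ± 0.04 and 0.14 ± 0.04 with valemetostat. H2ax, whose product is phosphorylated at DNA breaks, changed by 0.22 ± 0.05 and 0.24 ± 0.05. Cenpa, the centromeric H3, changed by 0.13 ± 0.05 and 0.16 ± 0.05, and Macroh2a1 by 0.11 ± 0.04 and 0.12 ± 0.04. These values passed edgeR's test over all genes, but on the log2(TPM + 1) values limma called 0 of the 7 with tazemetostat and 1, H2ax, with valemetostat. There the sign turned for Macroh2a1, at -0.04 with tazemetostat and -0.02 with valemetostat, and for H3f3b with valemetostat, at -0.02, so no direction is given for those. H2ax averaged 227 ± 12.2 CPM with tazemetostat, 231 ± 8.41 with valemetostat and 195 ± 4.44 with DMSO. Its annotated transcript holds the stem-loop letters 46 bases after the stop codon, with 822 bases after them and a poly(A) hexamer at its end.

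A list drawn up for the making and processing of histone mRNA had 33 tested genes. It also holds factors that act on RNA in general, among them Wdr33, Fip1l1, Upf1 and Exosc10, so its counts do not concern histone mRNA alone. Of the 33, 4 were higher and 9 lower with tazemetostat, and 5 higher and 13 lower with valemetostat. Of all tested genes 19.9% were higher and 18.2% lower with tazemetostat, and 20.5% and 18.7% with valemetostat. On the log2(TPM + 1) values limma called 1 of the 33 higher and 8 lower with tazemetostat, and 3 and 8 with valemetostat. In the counts the median log2 fold change was -0.06 and -0.06. Casp8ap2 (FLASH), which binds the U7 particle at histone pre-mRNA, fell by 0.36 ± 0.06 with tazemetostat and by 0.41 ± 0.06 with valemetostat on the log2 scale. Gon4l fell by 0.39 ± 0.06 and by 0.37 ± 0.06, and Cramp1 fell by 0.36 ± 0.08 and by 0.49 ± 0.08. Pou2f1 (Oct-1), which binds the octamer, fell by 0.24 ± 0.06 with tazemetostat and by 0.41 ± 0.06 with valemetostat. Wdr33 and Zc3h4 fell by 0.22 ± 0.05 and by 0.23 ± 0.05 with tazemetostat, and by 0.20 ± 0.05 and by 0.18 ± 0.05 with valemetostat. Tut4, a uridylyltransferase, fell by 0.20 ± 0.05 with tazemetostat and by 0.25 ± 0.05 with valemetostat.

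Those that rose included Eri1, a 3′ exonuclease that trims and degrades histone mRNA, by 0.26 ± 0.05 with tazemetostat and 0.21 ± 0.05 with valemetostat. Snrpb, an Sm protein, rose by 0.29 ± 0.06 and 0.30 ± 0.06, and Dis3l2, an exonuclease for uridylated RNA, by 0.28 ± 0.08 and 0.33 ± 0.08. Exosc10 rose by 0.16 ± 0.05 with tazemetostat. Lsm10, a subunit of the U7 particle, and Snrpd3 rose by 0.38 ± 0.11 and 0.17 ± 0.06 with valemetostat. Slbp, which binds the stem-loop, had log2 fold changes of 0.03 ± 0.05 and 0.08 ± 0.05 and was called in neither comparison (edgeR, adjusted p = 0.621 and 0.199). Between valemetostat and tazemetostat edgeR called 0 of the 33, with 1 at an unadjusted p under 0.05 and 0 by DESeq2.

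Of 35 histone chaperones and remodellers, 3 were higher and 14 lower with tazemetostat, and 2 higher and 14 lower with valemetostat, beside the same shares of all tested genes (19.9% and 18.2%, 20.5% and 18.7%). On the log2(TPM + 1) values limma called 1 higher and 8 lower with tazemetostat, and 0 and 11 with valemetostat. Ubn2 and Cabin1, of the HIRA complex that deposits H3.3, fell by 0.42 ± 0.06 and by 0.36 ± 0.05 with tazemetostat, and fell by 0.60 ± 0.06 and by 0.34 ± 0.05 with valemetostat. Atrx, also of H3.3 deposition, fell by 0.27 ± 0.05 and by 0.26 ± 0.05, and Hjurp, the CENP-A chaperone, fell by 0.30 ± 0.05 and by 0.24 ± 0.05. Mms22l fell by 0.37 ± 0.07 with tazemetostat and by 0.31 ± 0.07 with valemetostat. Hira fell by 0.26 ± 0.05 with tazemetostat and by 0.25 ± 0.05 with valemetostat. Znhit1, a subunit of the complex that inserts H2A.Z, rose by 0.27 ± 0.07 and 0.20 ± 0.07. Npm1 and Dnajc9 rose by 0.16 ± 0.05 and 0.12 ± 0.04 with tazemetostat, and Ipo4, an importer of H3 and H4, had a log2 fold change of 0.13 ± 0.04 with valemetostat in the counts and -0.11 in log2(TPM + 1).

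Since replication-dependent histones are made during DNA synthesis, 29 genes of that phase were read beside them. Of these, 3 were higher and 9 lower with tazemetostat, and 5 higher and 9 lower with valemetostat, beside 19.9% higher and 18.2% lower of all tested genes with tazemetostat and 20.5% and 18.7% with valemetostat. On the log2(TPM + 1) values limma called 0 higher and 10 lower with tazemetostat, and 1 and 10 with valemetostat. Cdc6 and Mcm6, of origin licensing, fell by 0.24 ± 0.05 and by 0.19 ± 0.04 with tazemetostat and fell by 0.27 ± 0.05 and by 0.22 ± 0.04 with valemetostat. Cdc25a fell by 0.21 ± 0.05 and by 0.21 ± 0.05, Orc1 and Mcm5 fell by 0.25 ± 0.07 and by 0.16 ± 0.05 with tazemetostat, and Mcm4 and Uhrf1 fell by 0.19 ± 0.04 and by 0.17 ± 0.04 with valemetostat. Up to 5 falling genes were named per inhibitor, so a fall given for 1 inhibitor may also have passed with the other. Pcna, the sliding clamp, rose by 0.16 ± 0.04 and 0.12 ± 0.04, Tk1 by 0.21 ± 0.06 and 0.24 ± 0.06, and Ccna2 by 0.15 ± 0.04 and 0.16 ± 0.04. Tyms and Ccne2 rose by 0.17 ± 0.05 and 0.23 ± 0.08 with valemetostat. The part of the cell cycle in the histone levels was not tested.

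RNA without a poly(A) tail was read beside the histone genes. It is no measure of how well the selection worked, since few of its rows could be tested and how they were counted is not given. Its 244 listed rows, of which 235 were at 0 in every library, summed to 11.7, 14.3 and 14.9 CPM in the tazemetostat libraries, 16.4, 15.4 and 19.8 CPM in the valemetostat libraries and 21, 13.5 and 11.9 CPM in the DMSO libraries, and the groups overlapped. Of the 4 rows that could be tested, 1 was called, Rpph1, the RNA of RNase P, which fell by 0.48 ± 0.19 with tazemetostat and by 0.78 ± 0.20 with valemetostat on the log2 scale. With median-ratio size factors the tazemetostat call was lost (edgeR, adjusted p = 0.0502). The part of such carry-over in the histone levels was not tested.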

How the data were processed

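The authors deposited whole-number counts per gene and library, and a table of log2 values that hold log2(TPM + 1): undone, 100% of values give whole hundredths of a TPM within 0.0001. Poly(A) RNA was selected and sequenced as 150-base read pairs, per the labels' protocols. Per the submitters' processing notes the files are on mm9; aligner, counting program, use of strand and annotation release were each not given in the sources used here. GENCODE M21 (GRCm38) served for transcript features and RefSeq (GRCm38.p6) for promoters, so coordinates are on that build and not on the files'.

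Counts were tested with edgeR 4.0.16 in R 4.3.3 (TMM, robust quasi-likelihood F test, filterByExpr with a minimum count of 10 and total of 15), with all 9 libraries in 1 fit of 3 groups. The filter kept 12580 genes and all 59 members. Calls needed a Benjamini-Hochberg adjusted p under 0.05 over all tested genes. Errors of log2 fold changes are standard errors, and CPM are mean ± SD of 3 libraries. The labels do not say that libraries came from separate cultures, so p-values measure the spread between libraries, which may be technical. Replicate pairs differed beyond counting noise (chi-square over its degrees of freedom, 5.29 to 13.6). Intervals and counts cover counting error and replicate spread only, since reads carry no molecular identifiers.

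Members, gene lists and named genes were chosen with earlier results of these data known. Named are all variant genes, up to 10 called replication-dependent genes per direction and comparison, the 5 with the highest CPM, the genes nearest the count limit, and up to 5 called genes per list and direction. H2bc23, Slbp, Trim17 and the genes left out of a sum were added after values were seen. Near-identical copies are histone genes of which at least 70% of 150-base windows recur in another histone gene. The edgeR procedure was also run on simulated counts with known changes. That simulation gave all genes the same spread, so it does not show how calls of the low-count members hold in the real libraries. Alternatives were DESeq2 1.42.0, limma-trend (limma 3.58.1) on the log2(TPM + 1) values, other scalings and filters, a length and GC offset (spline with 5 degrees of freedom), the replicate number as a block, the compared groups alone and each library left out. Copies summed, and members with under 50% of windows shared, were added after seeing the data.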

Additional observations from a re-analysis of the deposited data

Results flagged for a closer look

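H2bc4 differed between the inhibitors by a direct test, at -0.35 for valemetostat against tazemetostat on the log2 scale (edgeR, adjusted p = 0.0103), lower in 3 of 3 valemetostat libraries than in any tazemetostat library. H2aw differed in the same way, at -0.71 (edgeR, adjusted p = 0.0145), also in 3 of 3 libraries. Of 19 alternative analyses the H2bc4 call was lost in 5 and the H2aw call in 4, among them fits with 1 library left out.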

How the results depend on the processing

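Of 299 alternative values for the 16 called member comparisons, 229 kept direction and call, 70 lost the call and 0 reversed. With each library left out in turn, the replication-dependent genes called with tazemetostat ranged over 3 to 4 higher and 1 to 4 lower, against 4 and 5, and those with valemetostat at 1 higher in each case and over 0 to 1 lower, against 2 and 1. Between valemetostat and tazemetostat they ranged over 0 to 1 higher and 0 to 2 lower, against 0 and 2, and variant genes higher over 0 to 1 with tazemetostat and 0 to 1 with valemetostat, against 1 each. Between groups, same-numbered libraries correlated at -0.22 to 0.24 and differently numbered ones at -0.33 to 0.28, which shows no pairing and cannot exclude it. With the replicate block, 3 replication-dependent genes were higher and 4 lower with tazemetostat, and 1 in place of 2 was higher with valemetostat. Library totals, no filter, 2 groups alone and the length and GC offset also gave 1, and H2bc3 was the gene lost. With no filter 1 was higher with valemetostat than with tazemetostat. With valemetostat against DMSO, 3 replication-dependent genes were lower on the log2(TPM + 1) values and 2 with the offset. On the log2(TPM + 1) values 0 variant genes were called with either inhibitor and 0 replication-dependent genes lower between valemetostat and tazemetostat; the offset also gave 0 variant genes with valemetostat. Copies summed gave 3 lower with tazemetostat and 0 with valemetostat, and members with under 50% of windows shared gave 2 and 0. The cause of these changes was not tested. The summed replication-dependent ratio to DMSO was 1.11 with tazemetostat, 0.917 in TPM and 1.0 without H2bc4. With valemetostat it was 0.992, 0.881 in TPM, 0.96 with the offset and 0.934 without H2bc4. The variant ratio was 1.05 with tazemetostat and 1.05 with valemetostat, 0.979 and 0.977 in TPM, and 1.12 with valemetostat without H2az1. Low counts limit most single members, and poly(A) selection limits what a level means.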
